A study of Mus musculus with 12 samples.

Results

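Stellate and other mesenchymal cells of the mouse liver were studied as the cell barcodes that carried RNA of several mesenchymal genes. A barcode belonged to the population when it held at least 1000 unique molecular identifiers (UMIs, each standing for 1 captured RNA molecule), at most 15% of them mitochondrial, at least 1 UMI of at least 3 of the 8 genes Colec11, Reln, Lrat, Des, Pdgfrb, Dcn, Col3a1 and Col1a1, and no UMI of the endothelial genes Stab2 and Kdr. The rule selected 686 of 184493 barcodes that passed the UMI and mitochondrial limits, 457 of 113376 in embryos at E16.5 and 229 of 71117 in pups at postnatal day 3 (P3). Because members were chosen by the measured values of these 10 genes, the levels of those genes are given below as a description, without a test.

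Hepatic stellate cells lie between the sinusoidal endothelium and the hepatocytes, store vitamin A, and make collagen and other matrix proteins when activated. Portal fibroblasts surround the bile ducts and vessels, and mesothelial cells form the sheet that covers the liver. Jag1, which encodes a Notch ligand made by portal mesenchyme, signals to neighbouring cells that form bile ducts, and loss of its function in people causes Alagille syndrome. In the fetal liver, which is a blood-forming organ, stromal cells also supply factors such as Cxcl12 and Kitl to blood progenitors.

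The study measured whole liver by droplet single-cell RNA sequencing (10x Genomics) from Jag1+/+, Jag1Ndr/+ and Jag1Ndr/Ndr mice at both stages, with 2 individuals per genotype and stage according to the labels, giving 12 samples in 6 groups. Ndr is a missense allele of Jag1, so 3′ transcript counts do not check the genotype. Animals came from crosses between heterozygotes, homozygous P3 pups were picked by jaundice, dead cells were removed before loading, and the tissue was digested with TrypLE, a trypsin-like enzyme, in the embryos and without it in the pups. Stage, digestion, software version and gene annotation went together in the files and cannot be told apart.

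The matrices labelled E16.5 Jag1+/+ replicate 2 and Jag1Ndr/+ replicate 2 held identical values for 23166 barcodes and were counted as 1 library, called here the shared library. At P3 several matrices shared barcodes across genotype labels. 19927 of the 29132 barcodes of the matrix labelled Jag1+/+ replicate 1 were also in the matrix labelled Jag1Ndr/Ndr replicate 1. The P3 material was therefore used as 4 libraries, named A (labelled Jag1+/+ replicate 1), B (Jag1+/+ replicate 2), C (Jag1Ndr/Ndr replicate 1 without the barcodes of A) and D (Jag1Ndr/+ replicate 1), and no genotype comparison was made at P3. None of the selected barcodes was shared between any of the 36 pairs of the resulting 9 libraries, where 0 to 337 barcodes of all kinds were shared. Values per library are listed below in the order Jag1+/+ replicate 1, shared library, Jag1Ndr/+ replicate 1, Jag1Ndr/Ndr replicate 1 and Jag1Ndr/Ndr replicate 2 at E16.5, and A, B, C and D at P3.

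The E16.5 libraries gave 90, 87, 92, 69 and 119 selected barcodes, and the P3 libraries gave 105, 54, 46 and 24. Their summed depth was 678720 to 1440396 UMIs per library at E16.5 and 919637, 430315, 266711 and 90330 UMIs at P3, so library D was the thinnest. The median selected barcode held 4720 to 7833 UMIs at E16.5 and 2349 to 6462 at P3. A doublet caller marked 11 of the 686 selected barcodes, against 3.65% to 41.5% of all passing barcodes per library.

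Much of the RNA in these barcodes belonged to other cells, and its kind differed by stage. The median share of hemoglobin UMIs per selected barcode was 32.2%, 18.8%, 46.1%, 39.3% and 28.2% in the E16.5 libraries and 0.620%, 0.426%, 0.620% and 0.721% in the P3 libraries. Fewer than 5% hemoglobin UMIs were found in 44 of 457 barcodes at E16.5 (9.63%) and in 170 of 229 at P3 (74.2%). Summed over the selected barcodes, in counts per 1000000 UMIs (CPM), the 9 hepatocyte marker genes together reached 10619 to 69958 CPM at E16.5 and 653 to 6593 at P3. The 7 neutrophil markers reached 827 to 12998 CPM at E16.5 and 30308 to 42627 at P3, and the 8 macrophage markers 40.3 to 233 and 669 to 2657. In contrast, the 9 endothelial markers, among them Pecam1 and Cdh5, summed to 82.6 to 98.9 CPM at E16.5 and 93.7 to 188 at P3. All 9 hepatocyte and all 8 erythroid markers were detected in every library. The glial gene Sox10 had no UMI at either stage. Between stages, genes were therefore also tested in a second selection of barcodes, described next, in barcodes with under 5% hemoglobin UMIs, and without the hemoglobin genes, which gave 2052 calls against 2044 with them. That last fit left all other red-cell genes in, so its count does not show how much red-cell RNA matters. The part of the hepatocyte, neutrophil and macrophage RNA was not tested further.

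Clustering the selected barcodes by expression, separately at each stage, placed fewer than 1 in 2 of them in mesenchyme-rich clusters. A cluster counted as rich when a mesenchymal marker list had a mean z-score of at least 1 relative to the other clusters, a rule that itself limits how many clusters can qualify. At E16.5, 186 of 457 barcodes (40.7%) lay in 3 clusters rich in mesenchymal marker genes, and at P3 108 of 229 (47.2%) did. The other 271 and 121 barcodes lay in clusters led by genes of other cells. At E16.5 these were erythroid-like clusters of 86 and 63 barcodes, a hepatocyte-like cluster of 43 led by Afp, Serpina6 and Alb, an unnamed cluster of 31 led by the erythroid genes Tfrc and Kel, a neutrophil-like cluster of 24, a lymphoid-like cluster of 15 and a macrophage-like cluster of 9. At P3 they were a neutrophil-like cluster of 36 led by Camp and Ngp, whose mean score was highest for the macrophage list, an unnamed cluster of 32 led by Car1 and Hemgn, an unnamed cluster of 29 in which the promyelocyte genes Mpo and Elane stood beside the B cell gene Cd79a, and a hepatocyte-like cluster of 24. The P3 hepatocyte-like cluster, led by Alb and Afp, had a median hemoglobin share of 65.3%. Most RNA of its median barcode was thus hemoglobin, which the clustering left out. Its name therefore describes only its other leading genes. The mesenchyme-rich clusters held 46, 32, 35, 24 and 49 barcodes in the E16.5 libraries and 50, 27, 18 and 13 in the P3 libraries. Their median hemoglobin share was 27.2% at E16.5 and 0.614% at P3, so this difference between stages was present in them too. Their hepatocyte marker sum was 1489 to 3237 CPM at E16.5 and 971 to 1394 at P3. The names rest on marker lists, while the rule that turned markers into names was settled after the leading genes had been seen.

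**Figure D1:**
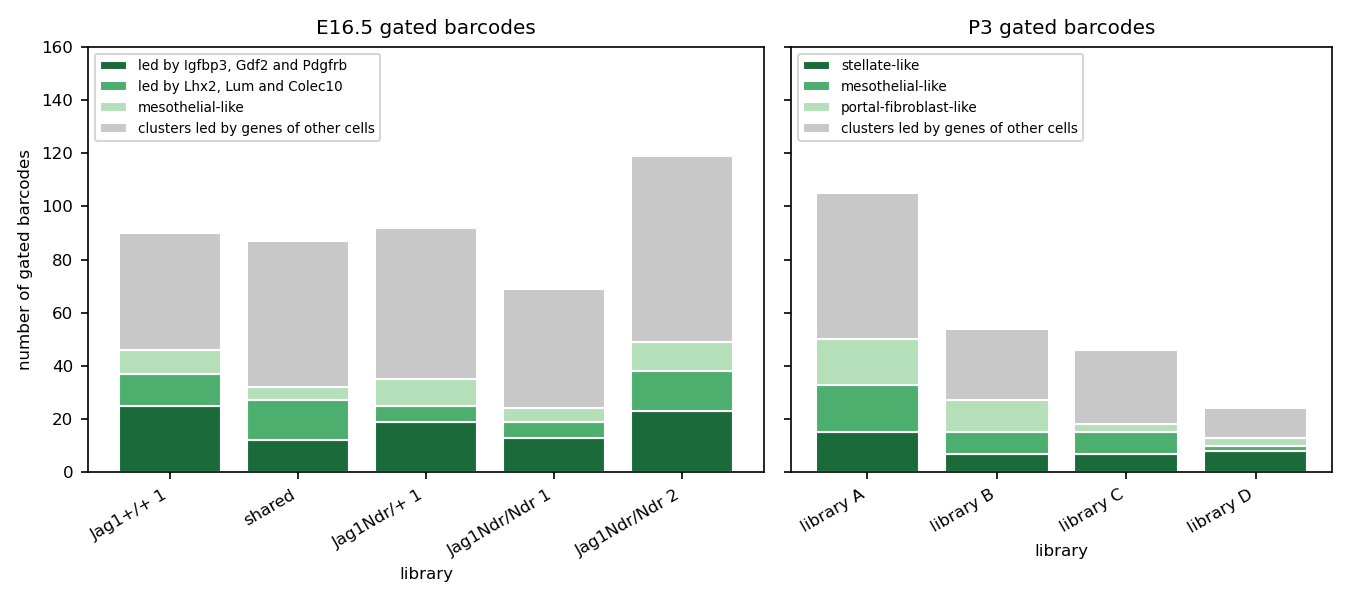
Number of selected barcodes per library (vertical axis) at E16.5 (left) and P3 (right), stacked by mesenchyme-rich cluster (greens) and by all clusters led by genes of other cells (grey). Between 24 and 49 barcodes per library at E16.5 and between 13 and 50 at P3 lay in mesenchyme-rich clusters, and 13 of them were from library D.

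Many members had no more than the 3 genes that the selection threshold asks for. Exactly 3 of the 8 genes were detected in 189 of the 457 E16.5 members (41.4%) and in 114 of the 229 P3 members (49.8%). Just outside the threshold, 581 barcodes at E16.5 and 332 at P3 had exactly 2 of the genes and no Stab2 or Kdr. These had a median of 2 UMIs of the 8 genes, against 5 (E16.5) and 11 (P3) for barcodes with 3 genes and 22 and 47 for those with 4 to 8, an order that the rule itself sets. The median hemoglobin share at E16.5 was 39.0%, 38.7% and 26.8% for barcodes with 2, 3 and 4 to 8 genes. At P3 the shares were 3.92%, 0.652% and 0.582%. Stab2 or Kdr removed 21 to 50 barcodes per library at E16.5 and 6 to 24 at P3.

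UMIs of the selection genes were also found in barcodes of other cells, and their source there was not tested. Among red-cell barcodes (more than 20% hemoglobin UMIs and not selected), whose median depth was 4881 to 9010 UMIs at E16.5 and 2613 to 5658 at P3, 0.602% to 2.67% per library held a Dcn UMI, against 89.7% to 98.1% of the selected barcodes. Col3a1 was found in 0.193% to 1.44% of red-cell barcodes and in 77.1% to 95.8% of selected ones. Reln had the highest share of these 3 genes in red-cell barcodes, 2.39% to 5.95%, against 33.3% to 79.0%. The selection rule fixes the direction of these differences, since it asks for 3 of the 8 genes.

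Among the selection genes, those of fibrous matrix had the highest counts. Col3a1, which encodes the chain of type III collagen, stood at 1311, 1044, 945, 1353 and 1073 CPM in the E16.5 libraries and at 2012, 2222, 1384 and 2015 CPM in the P3 libraries. Col1a1, a chain of type I collagen, was at 934, 681, 898, 1288 and 677 CPM at E16.5 and at 1789, 1504, 1807 and 1605 at P3. Dcn, which encodes the small proteoglycan decorin (chromosome 10, 97479609 to 97518143, plus strand, GRCm38), was at 926, 560, 649, 720 and 685 CPM and at 2380, 2989, 1755 and 2557 CPM. In all 3 genes every P3 library lay above every E16.5 library, while the hemoglobin part of the total was smaller at P3 (6.81% to 12.0% of selected UMIs, against 11.7% to 37.6%). This order is a description, since these genes chose the members and CPM is on the scale of library totals. The other selection genes overlapped between stages, as given next.

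The genes that mark stellate cells were lower and less even between libraries. Reln, which encodes the secreted protein reelin (chromosome 5, 21884454 to 22344702, minus strand), was at 462, 407, 213, 317 and 342 CPM at E16.5 and at 174, 216, 187 and 554 CPM at P3. Lrat, the enzyme that esterifies retinol for storage, was at 83.2, 40.3, 40.4, 28.0 and 61.8 CPM and at 78.3, 83.7, 97.5 and 244 CPM. Colec11, a secreted collectin, was at 161, 94.4, 113, 67.8 and 119 CPM and at 140, 160, 247 and 387 CPM. Library D was the highest P3 library for all 3 genes. Pdgfrb, the receptor for platelet-derived growth factor B, ranged 24.0 to 65.0 CPM in the embryonic libraries and 41.3 to 144 in the P3 libraries, again highest in D. Des, the muscle-type intermediate filament desmin, was the scarcest of the 8 genes at E16.5 (13.1 to 23.3 CPM) and ranged from 11.1 to 46.5 CPM at P3, lowest in D.

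**Figure D2:**
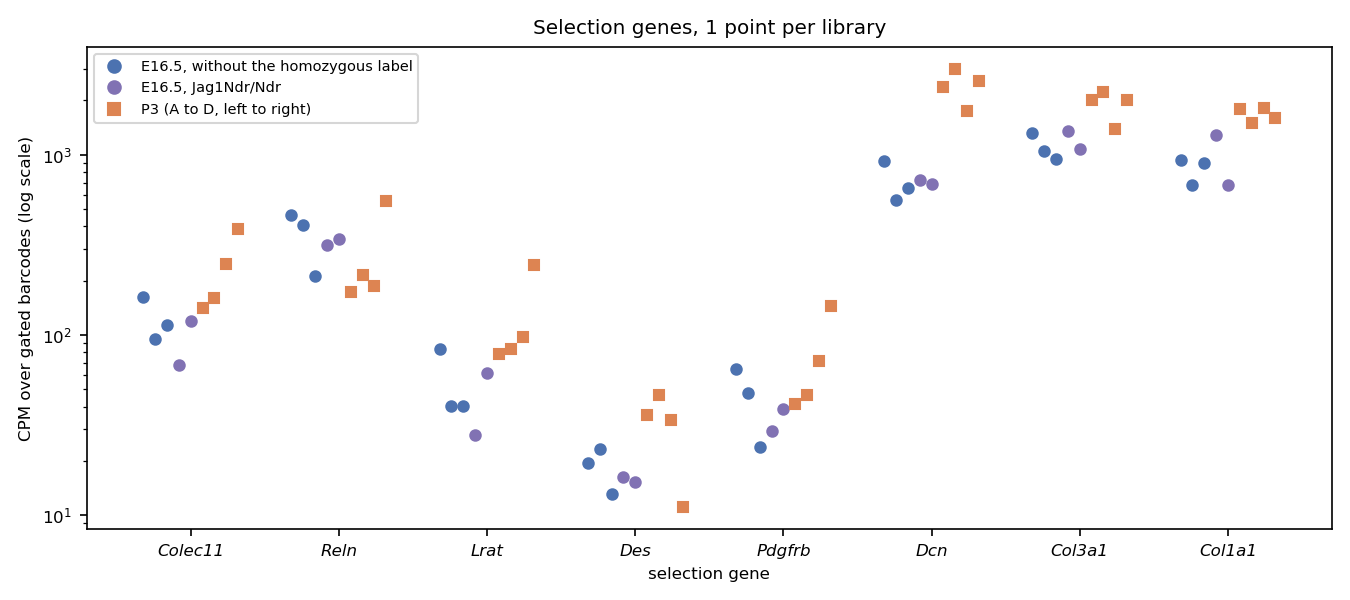
Levels of the 8 selection genes (horizontal axis) in CPM on a log scale, summed over the selected barcodes, 1 point per library (circles E16.5, with the 2 homozygous libraries in their own colour, squares P3, with libraries A to D from left to right). Col3a1, Col1a1 and Dcn lie highest, and library D stands above the other P3 libraries for Reln (554 CPM) and Lrat (244 CPM).

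The mesenchyme-rich barcodes of P3 fell into 3 clusters. A stellate-like cluster of 37 barcodes was led by Colec10, Cxcl12, Itga1, Reln, Nr1h5 and Hgf and had Reln at 1932 CPM, Colec11 at 1518, Lrat at 839, Sod3 (extracellular superoxide dismutase) at 1075 and Hgf (hepatocyte growth factor) at 773. A mesothelial-like cluster of 36 barcodes was led by Msln, Muc16, Tm4sf1 and C3 and had the mesothelial surface protein gene Msln at 2397 CPM, the uroplakin gene Upk3b at 2077 and the keratin gene Krt19 at 1058, with Lrat at 9.8. Its name rests on 3 mesothelial markers among its 10 leading genes, none of which was a marker of another list, while its mean score was higher for the megakaryocyte list (1.77) than for the mesothelial one (1.53). Pf4, the most abundant megakaryocyte marker there, was at 310 CPM in 13 of its 36 barcodes, and Msln was found in 35. A portal-fibroblast-like cluster of 35 barcodes was led by Enpp2, Osr1 and Cryab and had Mfap5 (a microfibril protein) at 647 CPM, Clec3b (tetranectin) at 626 and Dpt (dermatopontin) at 122. That last cluster is not cleanly apart from mesothelium. Its Krt19 at 737 CPM, Upk3b at 636 and Msln at 518 were about as high as its own markers and above the levels in the E16.5 cluster called mesothelial-like below. The stellate-like cluster counted 15, 7, 7 and 8 barcodes in libraries A to D, the mesothelial-like cluster 18, 8, 8 and 2, and the portal-fibroblast-like cluster 17, 12, 3 and 3.

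At E16.5 one mesenchyme-rich cluster was mesothelial-like and the other 2 met no naming rule. The mesothelial-like cluster of 40 barcodes was led by Igfbp5, Upk3b and Cav1, with 1 mesothelial marker (Upk3b) and 1 portal fibroblast marker (Eln) among its 10 leading genes and its highest mean score for the mesothelial list. It had Upk3b at 625 CPM, Krt19 at 279, Rspo1 at 209 and Msln at 168. Of the unnamed clusters, cluster 1 held 92 barcodes and was led by Igfbp3, Fabp4, Clca3a1 and Gdf2. Cluster 4 held 54 barcodes and was led by Lhx2, Arap2, Lpar4 and Lum. Both carried stellate genes and no UMI of Upk3b, Msln, Krt19 or Mfap5. Reln was at 881 CPM in cluster 1 and 1143 in cluster 4, Colec11 at 258 and 468, Lrat at 115 and 198, Hgf at 153 and 200, Sod3 at 106 and 194, and Lhx2, the transcription factor that restrains stellate cell activation, at 74 and 324. The stellate list had the highest mean score in both, but the one marker among the 10 leading genes came from another list in each (Abcc9 in cluster 1, Lum in cluster 4), so no E16.5 cluster is called stellate-like here. Cluster 1 had the higher hemoglobin share, a median of 34.1% against 13.1% in cluster 4.

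Cxcl12, the chemokine that holds blood progenitors in their niche, was highest in the Reln-rich clusters at both stages. It was at 526 and 1056 CPM in E16.5 clusters 1 and 4 and at 2347 CPM in the P3 stellate-like cluster, against 14.9 CPM in the E16.5 mesothelial-like cluster and 9.8 and 34.8 CPM in the P3 mesothelial-like and portal-fibroblast-like clusters. Col1a1 had the opposite order. It was at 670 and 807 CPM in E16.5 clusters 1 and 4 and at 867 in the P3 stellate-like cluster, against 5237 in the E16.5 mesothelial-like cluster and 5453 and 4138 in the P3 mesothelial-like and portal-fibroblast-like clusters. Rspo1, a secreted enhancer of Wnt signals, had no UMI in the 2 Reln-rich E16.5 clusters or the P3 stellate-like cluster and was at 209 CPM in the E16.5 mesothelial-like cluster and at 453 and 233 in the other 2 P3 clusters. Jag1 (chromosome 2, 137081456 to 137116644, minus strand) was at 47.2, 47.4 and 11.2 CPM in E16.5 clusters 1, 4 and 6 and at 28.3, 0 and 10.4 CPM in P3 clusters 1, 3 and 4, the P3 values on few UMIs. These levels are sums over barcodes grouped by the same counts and carry no test.

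**Figure D3:**
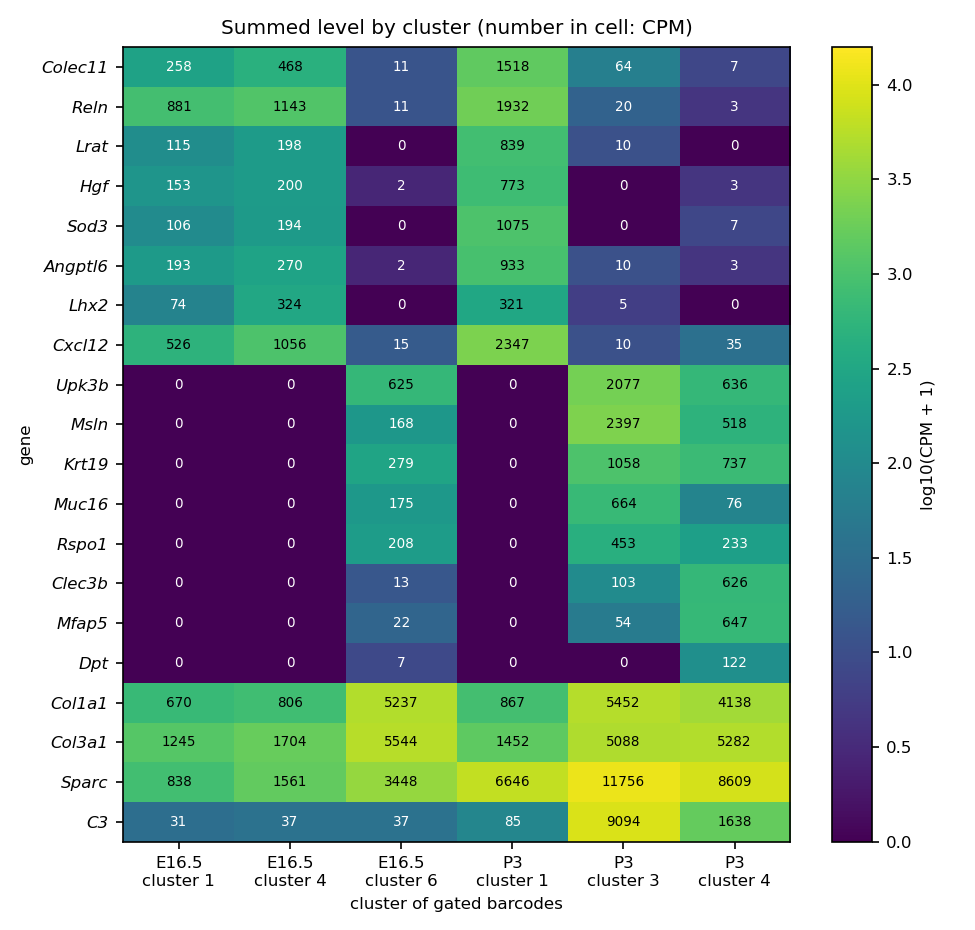
Summed levels of 20 genes (rows) in the 3 mesenchyme-rich clusters of each stage (columns), coloured by log10(CPM + 1) with the CPM printed in each cell. Clusters 1 and 4 at E16.5 and cluster 1 at P3 carry Colec11, Reln, Lrat and Cxcl12, cluster 6 at E16.5 and cluster 3 at P3 carry Upk3b and Msln, and cluster 4 at P3 carries Mfap5, Clec3b and mesothelial genes.

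The mesothelial-like clusters of the 2 stages differed in the level of C3, the central complement component (chromosome 17, 57203970 to 57228136, minus strand). C3 was at 68.5, 0, 16.1, 64.2 and 21.5 CPM in the mesothelial-like barcodes of the E16.5 libraries and at 8589, 10742, 7432 and 20607 CPM in those of P3 libraries A to D. It rested on 20 UMIs in 12 of 40 barcodes at E16.5 and on 1848 UMIs in 35 of 36 barcodes at P3. C3 was among the leading genes of the P3 cluster, so its level there is a description. Sparc, the collagen-binding matrix protein osteonectin, was at 3547, 4317, 4009, 2735 and 3509 CPM and at 11212, 8329, 18552 and 8586 CPM. Upk3b itself was at 446, 662, 684, 519 and 768 CPM and at 1625, 2755, 2650 and 2576 CPM. For all 3 genes the P3 libraries lay above the E16.5 libraries. Library D gave only 2 of these P3 barcodes, and the E16.5 libraries gave 5 to 11 each. Upk3b is also a marker behind the names of both clusters, so its levels are a description.

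With all libraries, the share of selected barcodes passed no test between genotypes or stages over all passing barcodes, while the stage ratio depended on the processing. It was 0.475%, 0.422%, 0.317%, 0.376% and 0.450% of passing barcodes at E16.5 and 0.488%, 0.308%, 0.306% and 0.141% at P3. The mean was 0.405% ± 0.0807 (SD, n = 3) without the homozygous label and 0.413% ± 0.0525 (n = 2) with it, a log2 ratio of 0.03. The exact two-sided permutation test gave p = 1 and cannot reach 0.05 with so few libraries. Between stages the mean was 0.408% ± 0.0630 (n = 5) at E16.5 and 0.311% ± 0.142 (n = 4) at P3, a log2 ratio of -0.39 with exact permutation p = 0.222, where the smallest possible value is 0.01587. The stage ratio was -1.54 when selected and passing barcodes were both limited to under 5% hemoglobin UMIs (1.37% ± 0.745 at E16.5 and 0.470% ± 0.164 at P3, exact p = 0.0317). That selection leaned to hepatocyte-like barcodes at E16.5, as described below. The stage ratio was -0.70 without library A (exact p = 0.0357), -0.64 with called doublets removed from all barcodes (exact p = 0.0476) and 0.35 after every barcode had been thinned to 1000 UMIs (exact p = 0.460).

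No gene passed the test between homozygous and other E16.5 libraries. Of 8124 genes tested on UMIs summed per library, 0 (0%) had a Benjamini-Hochberg adjusted p under 0.05 by the quasi-likelihood test of edgeR. Before adjustment 101 genes were under 0.05. By DESeq2 0 genes passed, and 35 were under 0.05 before adjustment. Without the filter on low counts 25 genes were called, and with barcodes selected after thinning to 1000 UMIs, 43 genes were called. Jag1 itself was at 20.8, 20.2 and 12.0 CPM in the libraries without the homozygous label and at 19.2 and 9.72 in the homozygous libraries, which overlap (log2 fold change -0.21, unadjusted p = 0.662). Without Jag1Ndr/Ndr replicate 2 its log2 fold change was 0.46.

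Of 203 tested members of the 15 gene lists described below, 6 had an unadjusted p under 0.05 between genotypes, beside 101 of all 8124 genes. Both shares were below 0.05, the share expected if no gene differed. None of the 6 passed adjustment (adjusted p = 0.999748 for each), and they are listed as a description. They were Atf3 (stress-induced transcription factor, log2 fold change 1.74), Wt1 (mesothelial transcription factor, 1.31), Rspo1 (1.29), Plod1 (collagen lysyl hydroxylase, 1.02), Plin2 (lipid droplet coat, -0.57) and Lama2 (laminin chain, -1.16). Wt1 stood at 81.0 CPM in Jag1Ndr/Ndr replicate 1 against 17.0 to 29.4 in the other 4 E16.5 libraries, so its fold rested on that library. Plod1 reversed to -0.23 when barcodes were selected after thinning.

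Between stages, many genes differed, in both directions. Of 7691 genes tested, 2044 (26.6%) had an adjusted p under 0.05, 934 (12.1%) higher at P3 and 1110 (14.4%) lower. In the mesenchyme-rich clusters 943 of 4172 genes tested (22.6%) were called, 423 (10.1%) higher and 520 (12.5%) lower. In barcodes with under 5% hemoglobin UMIs, of which E16.5 had 44, 1010 of 3811 genes tested were called. At E16.5 that selection leaned to hepatocyte-like barcodes, since the hepatocyte-like cluster of 43 had medians of 2.45% hemoglobin and 31262 UMIs. The mesenchyme-rich barcodes of E16.5 had a median of 27.2% hemoglobin. Folds under 5% hemoglobin UMIs therefore do not isolate mesenchymal RNA. Of the 75 genes named in the text that were tested there, 59 kept their direction and side of the threshold, 12 no longer passed, Hgf newly passed, and Lum, Cxcl12 and Rrm2 turned direction. With at least 4 markers 76 of 93 kept both and 15 no longer passed, and with selection after thinning 64 of 79 did and 9 no longer passed. Of 4166 genes tested in both main and mesenchyme-rich selections, 1193 were called over all selected barcodes and 942 in the mesenchyme-rich clusters, 666 of them in the same direction in both and 3 in opposite directions, and 50 of the 1193 had a fold of the other sign in the mesenchyme-rich clusters. The balance of directions depended on the scaling between libraries. The trimmed mean of M-values (TMM), used for all folds here unless stated, centres the fold changes, whereas scaling to library totals moved the median log2 fold change of all genes from -0.004 to 0.41 and gave 2015 higher and 512 lower calls (79.7% higher, against 45.7% with TMM). In the mesenchyme-rich clusters the same change gave 907 higher and 277 lower calls (76.6% higher, against 44.9%) with a median of 0.39. CPM values are on the scale of library totals, so for genes higher at P3 the ratio of the printed levels exceeds the TMM fold. In sums over barcodes, more cells of a kind and more RNA per cell cannot be told apart, and the mix of clusters differed between stages. The mesenchyme-rich clusters were formed on the same counts, so their folds are a second selection of barcodes and no independent evidence. This holds most for the leading genes of those clusters, among them Igfbp3, Lum, Lhx2, Eln, Timp1, Hgf and Cxcl12.

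**Figure D4:**
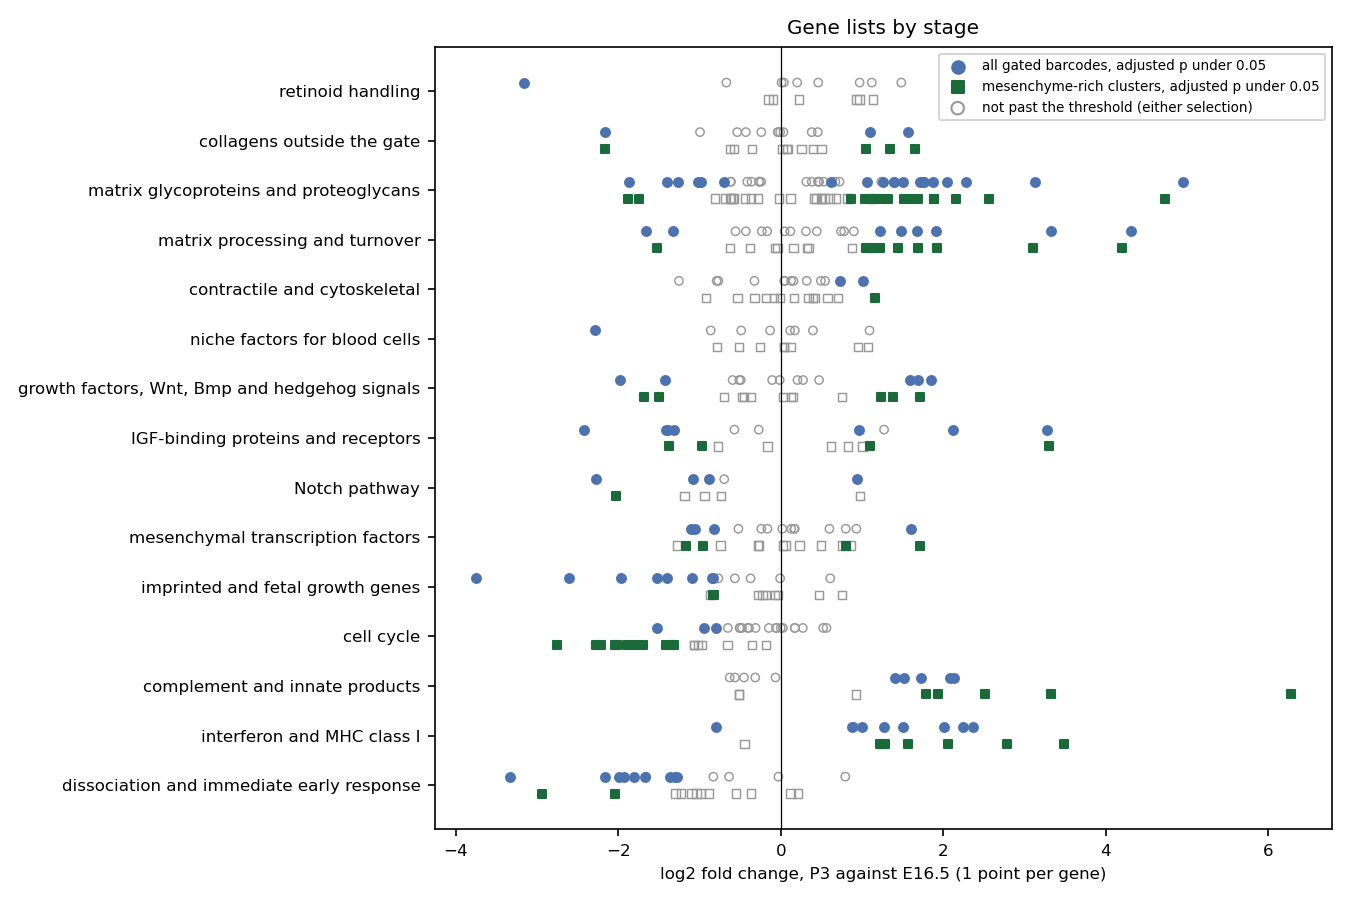
Log2 fold change at P3 against E16.5 of every tested member of the 15 gene lists (rows), 1 point per gene, circles for all selected barcodes and squares for the mesenchyme-rich clusters, filled where adjusted p is under 0.05. The interferon and MHC class I genes lie mostly to the right (median 1.27 over all selected barcodes) and the immediate early genes to the left (median -1.51).

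Many genes of the extracellular matrix were higher at P3 in both selections. Of 36 listed matrix glycoproteins and proteoglycans, all 36 were tested, 14 rose and 6 fell between E16.5 and P3, with a median log2 fold change of 0.50 beside -0.004 over all genes. Of all genes, 12.1% were called higher and 14.4% lower. In the mesenchyme-rich clusters 13 of 35 rose and 2 fell (median 0.55, beside -0.006), where 10.1% of all genes were called higher and 12.5% lower. Sparc (chromosome 11, 55394500 to 55423183, minus strand) was at 871, 633, 876, 1006 and 664 CPM at E16.5 and at 3973, 3551, 5043 and 2889 CPM at P3. Every P3 library was more than 2 times above every E16.5 library. It rose by 1.75 (SE 0.28, adjusted p = 0.000795) on the log2 scale and by 1.88 (SE 0.28, adjusted p = 0.000179) in the mesenchyme-rich clusters. Elastin (Eln) rose by 1.87 and 1.69 on the log2 scale in the 2 selections (1.74, adjusted p = 0.129, under 5% hemoglobin UMIs) and Fbln1, the elastic fibre protein fibulin-1, by 2.05 and 2.16. Ecm1 rose by 1.77 and 1.60 and Mgp, an inhibitor of calcification, by 3.13 and 2.56. Mgp was uneven at P3, with 206 and 293 CPM in A and B and 52.5 and 22.1 CPM in C and D, and the last lay within the E16.5 range of 7.80 to 23.6.

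The matrix genes that fell over all selected barcodes were Lum, Fn1, Tnc, Lama1, Matn2 and Thbs1. Tnc, the glycoprotein tenascin-C of developing and injured tissue, fell by 1.88 (SE 0.38, adjusted p = 0.00316) and by 1.75 in the mesenchyme-rich clusters (adjusted p = 0.00965). The laminin chain gene Lama1 fell by 1.41 (adjusted p = 0.0207) and by 1.88 (adjusted p = 0.0207). Scaled to library totals, Lama1 no longer passed (adjusted p = 0.0843), nor did Lum (0.482) and Fn1 (0.190). Under 5% hemoglobin UMIs the direction of Lum turned, to a log2 fold change of 0.94 (adjusted p = 0.0723). With at least 4 markers Lum (-0.33, adjusted p = 0.412), Fn1 (-0.74, 0.128), Lama1 (-0.81, 0.242) and Tnc (-1.23, 0.0522) did not pass, and after thinning Fn1 turned to 0.64 (0.204). Leaving out 1 library ended the call of Lum for 7 of the 9 libraries (adjusted p = 0.0522 to 0.131, all but Jag1Ndr/Ndr replicate 2 and B) and that of Fn1 for 6 (0.0511 to 0.0995, all but Jag1+/+ replicate 1, Jag1Ndr/Ndr replicate 1 and B). Lama1 was lost without A (-1.03, adjusted p = 0.141) or B (-1.43, 0.0576). Fibronectin (Fn1) went in opposite directions in the 2 selections, a log2 fold change of -1.03 (adjusted p = 0.0370) over all selected barcodes and 1.03 (adjusted p = 0.0432) in the mesenchyme-rich clusters, where it did not pass with the replicate block (1.02, adjusted p = 0.0588). It was at 470, 802, 356, 262 and 623 CPM at E16.5 over all selected barcodes and at 528, 267, 162, 271 and 177 CPM in the mesenchyme-rich clusters. The shared library and Jag1Ndr/Ndr replicate 2, which had the highest Fn1 over all selected barcodes, also held the most hepatocyte-like barcodes (16 and 15 of 43). At E16.5 Fn1 was at 1378 CPM (1955 UMIs) in the hepatocyte-like cluster, against 276, 223 and 322 CPM in mesenchyme-rich clusters 1, 4 and 6. The part of hepatocyte RNA in the Fn1 difference was not tested.

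Over all selected barcodes and in the mesenchyme-rich clusters, collagen genes outside the selection were called about as often as all genes. Of 16 listed, 13 were tested, 2 rose and 1 fell (median -0.04), where 26.6% of all genes were called, and in the mesenchyme-rich clusters 3 of 13 rose and 1 fell (median 0.08). Under 5% hemoglobin UMIs 5 of 10 rose and 1 fell (median 1.22, beside 0.056 over all genes). There 459 of 3811 genes were called higher and 551 lower, and the E16.5 barcodes leaned to hepatocyte-like ones. Col6a2, a chain of the beaded-filament type VI collagen, was at 107, 62.6, 86.2, 70.7 and 61.8 CPM and at 379, 383, 259 and 210 CPM, with no overlap between stages. It rose by 1.57 (SE 0.27, adjusted p = 0.00125) and by 1.65 in the mesenchyme-rich clusters, and Col6a1 by 1.09 and 1.05. Col11a1, a chain of a minor fibril collagen, fell by 2.16 (adjusted p = 0.00514) and by 2.17 (adjusted p = 0.0140), with 9.79 and 11.6 CPM in libraries A and B but 63.7 and 55.4 in C and D, inside the E16.5 range of 44.7 to 127. Col1a2, the partner chain of Col1a1, did not pass with TMM (log2 fold change 0.38, adjusted p = 0.298) and passed with library totals (0.90, adjusted p = 0.00488).

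Several enzymes and inhibitors of matrix processing rose. Of 22 listed, 19 were tested, 6 rose and 2 fell (median 0.44, beside -0.004 over all genes, of which 12.1% were called higher and 14.4% lower). Of 18 tested in the mesenchyme-rich clusters 8 rose and 1 fell (median 0.96), beside 10.1% and 12.5% of all genes there. Loxl1, which cross-links elastin (chromosome 9, 58287738 to 58313186, minus strand), was at 13.0, 3.18, 10.9, 7.37 and 7.64 CPM at E16.5 and at 129, 109, 78.7 and 155 CPM at P3. It rose by 3.33 (SE 0.33, adjusted p = 3.8e-05) and by 3.1 (adjusted p = 3.23e-06) in the mesenchyme-rich clusters, where its level was 284 ± 74.6 CPM (SD, n = 4) at P3 and 22.9 ± 6.36 (n = 5) at E16.5. The metalloproteinase inhibitor Timp2 was at 68.9, 53.0, 67.6, 72.2 and 61.8 CPM and at 373, 407, 296 and 255 CPM, and rose by 1.91 (adjusted p = 0.000168). Timp1 rose by 4.31 (adjusted p = 0.000905), from 1.47 to 14.2 CPM at E16.5 to 253, 253, 33.7 and 11.1 CPM in A to D. The gelatinase gene Mmp2 rose by 1.68, with 91.3, 83.7, 63.7 and 432 CPM in A to D, so library D was far above the rest. The collagen chaperone subunit P4hb fell by 1.33 over all selected barcodes (adjusted p = 0.00342), with a log2 fold change of -0.04 in the mesenchyme-rich clusters (adjusted p = 0.940) and -0.38 after thinning (adjusted p = 0.252). The aggrecanase-family gene Adamts1 fell in both, by 1.66 and 1.52, with no overlap between stages over all selected barcodes, but did not pass under 5% hemoglobin UMIs (-0.40, adjusted p = 0.297).

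**Figure D5:**
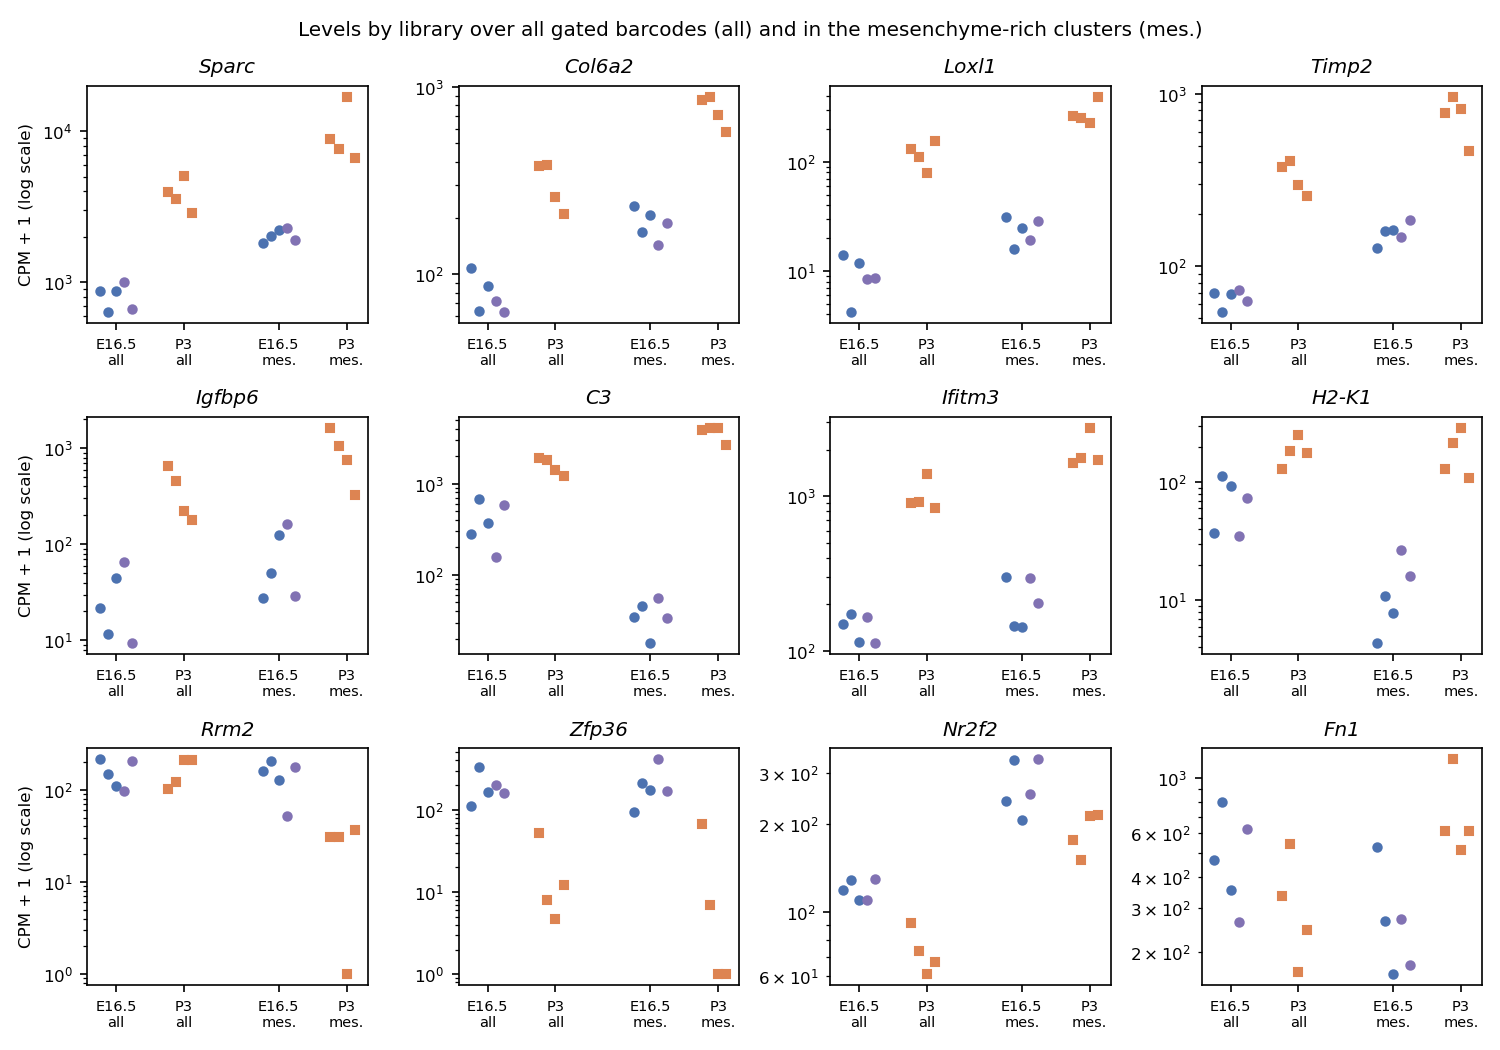
Levels of 12 genes in CPM + 1 (log scale), 1 point per library, over all selected barcodes (all) and in the mesenchyme-rich clusters (mes.), at E16.5 and P3. Sparc, Loxl1, Timp2 and Ifitm3 separate the stages in both selections, C3 and H2-K1 separate further in the mesenchyme-rich clusters, and Fn1 changes its order.

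Among contractile and cytoskeletal genes, Vim and Flna rose. They were 2 of 13 tested (17 listed), a share near the 12.1% of all genes called higher, and 0 fell. Vim, the mesenchymal intermediate filament vimentin, was at 524, 385, 442, 514 and 369 CPM and at 1305, 1775, 1117 and 819 CPM, and rose by 1.01 (adjusted p = 0.0149) and by 1.15 in the mesenchyme-rich clusters (adjusted p = 0.00631). Without library B its fold over all selected barcodes was 0.81 (adjusted p = 0.0544), and under 5% hemoglobin UMIs 1.09 (adjusted p = 0.0704). Flna, an actin cross-linker, rose by 0.73 (adjusted p = 0.00930) and did not pass in the mesenchyme-rich clusters (0.57, adjusted p = 0.145) or after thinning (0.60, adjusted p = 0.0810). It was at 248 CPM in the neutrophil-like cluster at E16.5 and 357 in that of P3, and the part of neutrophil RNA in its difference was not tested. Acta2, the smooth-muscle actin of activated stellate cells, was at 174, 115, 57.8, 70.7 and 32.6 CPM and at 55.5, 62.7, 82.5 and 88.6 CPM, with overlapping stages (log2 fold change -0.79, adjusted p = 0.137). Without Jag1Ndr/Ndr replicate 2 it passed (-1.02, adjusted p = 0.0210). Tagln was at 164, 74.3, 58.9, 57.5 and 17.4 CPM and at 13.0, 9.30, 71.2 and 177 CPM (adjusted p = 0.218).

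With TMM no gene of retinoid handling, a defining task of stellate cells, passed as higher at P3 in either selection. Of 16 listed, 9 were tested, and Rbp4 alone fell over all selected barcodes, where 12.1% of all genes were called higher and 14.4% lower. In the mesenchyme-rich clusters 0 of 6 passed, beside 10.1% and 12.5% of all genes there. With so few genes tested, these counts do not set the list apart from all genes. Rbp2, a retinol-binding protein like Rbp4, was not on the list and is among the lower genes named below. Lrat, a selection gene, was also not on the list, and its untested levels given above reached higher at P3. Rbp4, the plasma retinol carrier that hepatocytes secrete, fell by 3.17 (adjusted p = 0.00694), from 2328 and 2309 CPM in the shared library and Jag1Ndr/Ndr replicate 2 and 250 to 1218 in the other E16.5 libraries to 44.3 to 448 CPM at P3. Its log2 fold change in the mesenchyme-rich clusters was -0.15 (adjusted p = 0.796). Aldh1a2, a retinoic acid synthase of mesothelium, was at 6.37 to 20.6 CPM and 22.1 to 44.2 CPM (log2 fold change 1.12, adjusted p = 0.0778), and passed with library totals (1.54, adjusted p = 0.00994) or without Jag1Ndr/Ndr replicate 1 (1.47, adjusted p = 0.0143).

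Among factors that stroma supplies to blood cells, 8 of 16 listed genes were tested and Igf2 alone passed over all selected barcodes. With 1 of 8 lower, this was near the 14.4% of all genes called lower, and 12.1% were called higher. The growth factor gene Igf2 fell by 2.29 (adjusted p = 0.0117), with 37.2 CPM in library B and 0 to 4.35 in the other P3 libraries against 20.6 to 73.2 CPM at E16.5. The call was lost without library A (-1.71, adjusted p = 0.0624). It did not pass in the mesenchyme-rich clusters (-0.79, adjusted p = 0.426) or after thinning (-1.31, adjusted p = 0.133). Cxcl12 was at 338, 326, 238, 224 and 237 CPM and at 241, 198, 244 and 443 CPM (log2 fold change -0.49, adjusted p = 0.0916). It passed without library D (-0.66, adjusted p = 0.0231), and turned direction under 5% hemoglobin UMIs (0.35), with at least 4 markers (0.20) and with library totals in the mesenchyme-rich clusters (0.21), none of which passed. Kitl, the ligand of the Kit receptor on blood progenitors, was at 7.80 to 41.4 CPM and 11.1 to 58.1 CPM (0.39, adjusted p = 0.512). In the mesenchyme-rich clusters its log2 fold change was 1.07 (adjusted p = 0.0633), and it passed there with library totals (1.43, adjusted p = 0.0169), with the replicate block (1.24, adjusted p = 0.0279) or without library D (1.17, adjusted p = 0.0416). Under 5% hemoglobin UMIs it was 0.05 (adjusted p = 0.947).

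Of 19 listed growth factors and members of the Wnt, Bmp and hedgehog pathways, 13 were tested, 3 rose and 2 fell (median -0.01), where 12.1% of all genes were called higher and 14.4% lower, and the same 5 genes passed in the mesenchyme-rich clusters. Rspo1 was at 10.4, 17.0, 20.7, 44.2 and 29.9 CPM and at 134, 90.6, 86.2 and 66.4 CPM, with no overlap, and rose by 1.59 (SE 0.39, adjusted p = 0.00913) and by 1.38. The ligand gene Wnt4 rose by 1.85 and 1.71, from 2.12 to 20.8 CPM to 22.5 to 55.4 CPM, and Tgfb1 by 1.69 and 1.23. Over all selected barcodes the call of Rspo1 was lost without library A (1.28, adjusted p = 0.0556) and that of Wnt4 without library B (1.71, adjusted p = 0.0507), and Rspo1 did not pass under 5% hemoglobin UMIs (1.25, adjusted p = 0.171). Vegfa, the endothelial growth factor, fell by 1.98 and 1.68, and Ptch1, the hedgehog receptor that is itself a target of the pathway, by 1.43 and 1.50. With library totals Vegfa and Ptch1 no longer passed in the mesenchyme-rich clusters (adjusted p = 0.0512 and 0.0774). Hgf was at 65.0, 54.1, 37.1, 22.1 and 59.7 CPM and at 71.8, 74.4, 67.5 and 122 CPM (log2 fold change 0.27, adjusted p = 0.434), and passed under 5% hemoglobin UMIs, where it rose by 1.96 (adjusted p = 0.00243).

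Insulin-like growth factor (IGF) binding proteins moved both ways. Of 10 listed binding proteins and receptors, all 10 were tested, 3 rose and 4 fell (median -0.42), where 12.1% of all genes were called higher and 14.4% lower. In the mesenchyme-rich clusters 2 of 9 rose and 2 fell (median 0.61), beside 10.1% and 12.5% of all genes there. Igfbp6 was at 20.8, 10.6, 43.6, 64.8 and 8.33 CPM and at 656, 458, 221 and 177 CPM, and rose by 3.27 (SE 0.61, adjusted p = 0.00193) and by 3.31. Igfbp7 rose by 0.96 and 1.09 (0.73, adjusted p = 0.0515, after thinning). Igfbp3, a leading gene of E16.5 cluster 1, was at between 124 and 307 CPM and at 125, 105, 41.2 and 111 CPM, and fell by 1.41 (adjusted p = 0.00672) and by 1.38 (adjusted p = 0.00380). It did not pass under 5% hemoglobin UMIs (-0.60, adjusted p = 0.180) or with at least 4 markers (-0.81, adjusted p = 0.106).

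Of 17 listed Notch pathway genes, 5 were tested. Jag1 was at 20.8, 20.2, 12.0, 19.2 and 9.72 CPM at E16.5 and at 4.35, 2.32, 0 and 22.1 CPM at P3, so libraries A to C lay below every E16.5 library and the thin library D above them all. It fell by 2.27 (SE 0.55, adjusted p = 0.00882) and by 2.03 in the mesenchyme-rich clusters (adjusted p = 0.0385). With library totals it did not pass in those clusters (adjusted p = 0.0937). With at least 4 markers Jag1 (-1.93, adjusted p = 0.0613), Notch1 (-0.45, 0.348), Notch2 (-0.70, 0.205) and Rbpj (0.75, 0.126) did not pass. The receptor genes Notch1 and Notch2 fell by 0.88 and 1.08 over all selected barcodes and did not pass in the mesenchyme-rich clusters (adjusted p = 0.0593 and 0.130) or with library totals (0.301 and 0.171). Leaving out 1 library ended the call of Notch1 for 6 of the 9 libraries (adjusted p = 0.0504 to 0.132, all but Jag1Ndr/Ndr replicate 1, A and D) and that of Notch2 for 3 (0.0541 to 0.104, Jag1Ndr/Ndr replicate 2, A and C). Rbpj, the DNA-binding partner of activated Notch, rose by 0.94 (adjusted p = 0.00900), from 15.3 to 30.5 CPM to 56.5 to 83.7. Its log2 fold change in the mesenchyme-rich clusters was 0.98 (adjusted p = 0.0682). The Notch target Hes1 did not pass (log2 fold change -0.70, adjusted p = 0.224).

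Of 16 listed mesenchymal transcription factors, 14 were tested, 1 rose and 3 fell, a share near the 26.6% of all genes called. Nr2f2, a nuclear receptor of venous and mesenchymal cells, was at 118, 127, 109, 109 and 128 CPM and at 90.3, 72, 60.0 and 66.4 CPM, and fell by 1.10 (SE 0.20, adjusted p = 0.00191) and by 0.96. Under 5% hemoglobin UMIs it did not pass (-0.50, adjusted p = 0.341), nor did Nfix (1.63, 0.0510), and with at least 4 markers Foxf1 (-0.65, 0.244) and Lhx2 (-0.54, 0.274) did not. Foxf1, a forkhead factor of visceral mesenchyme, fell by 0.82 and 1.17, and Lhx2 fell by 1.06 (adjusted p = 0.0143), with -1.28 in the mesenchyme-rich clusters (adjusted p = 0.0613). Nfix was at 31.2, 22.3, 15.3, 56.0 and 20.1 CPM and at 116, 139, 109 and 88.6 CPM, and rose by 1.60 and 1.71. With library totals Lhx2 and Foxf1 no longer passed (adjusted p = 0.175 and 0.303), Nr2f2 no longer passed in the mesenchyme-rich clusters (0.115), and Gata6 rose by 1.06 (adjusted p = 0.00305). Leaving out 1 library ended the call of Foxf1 for 7 of the 9 libraries (adjusted p = 0.0528 to 0.146, all but Jag1Ndr/+ replicate 1 and A) and that of Lhx2 for library A (-0.85, adjusted p = 0.0810).

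Imprinted and fetal growth genes were mostly lower at P3 over all selected barcodes. Of 16 listed, 13 were tested, 8 fell and 0 rose (median -0.85), where 14.4% of all genes were called lower. In the mesenchyme-rich clusters 2 of 10 fell (median -0.21), beside 12.5% of all genes there. With library totals 3 fell and 1 rose over all selected barcodes, and 0 fell and 1 rose in the mesenchyme-rich clusters. Mest was at 492, 370, 273, 290 and 304 CPM and at 242, 225, 146 and 277 CPM, and fell by 1.10 (adjusted p = 0.00248) and by 0.82 (adjusted p = 0.0323). It was at -0.01 (adjusted p = 0.977) under 5% hemoglobin UMIs, -0.58 (0.139) with at least 4 markers, and -0.66 (0.0545) and, in the mesenchyme-rich clusters, -0.39 (0.299) with library totals. Plagl1, a zinc finger factor of this gene network, fell by 0.85 and 0.83 with TMM, a call over all selected barcodes that was lost without A, B or C (adjusted p = 0.0631 to 0.0729), under 5% hemoglobin UMIs (-0.61, 0.417), with at least 4 markers (-0.73, 0.111) and with library totals (-0.33, 0.359). In the mesenchyme-rich clusters Plagl1 did not pass with the replicate block (-0.81, adjusted p = 0.0643) or with library totals (-0.37, 0.394). Cdkn1c, a growth-restraining cyclin kinase inhibitor, was at 502, 520, 598, 533 and 535 CPM and at 233, 416, 139 and 266 CPM, and fell by 1.52 (SE 0.29, adjusted p = 0.00223). It did not pass in the mesenchyme-rich clusters (-0.88, adjusted p = 0.0513, or -0.43 and 0.260 with library totals). Dlk1 did not pass in either selection (adjusted p = 0.0841 and 0.893), but passed over all selected barcodes without library A (-1.11, adjusted p = 0.0164). H19 and Meg3 were not analysed at P3.

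The count of proliferation genes that fell depended on the selection of barcodes. Of 20 listed, 3 of 20 fell over all selected barcodes (median -0.23), near the 14.4% of all genes called lower. In the mesenchyme-rich clusters, where 12.5% of all genes were called lower, 11 of 18 fell (median -1.38), or 6 with library totals. Under 5% hemoglobin UMIs 1 of 19 fell (median -0.01), where 551 of 3811 genes were called lower, and Rrm2 stood at 0.09. Rrm2, a subunit of the enzyme that makes deoxynucleotides (chromosome 12, 24708241 to 24714146, plus strand), was at 160, 203, 128, 51.3 and 174 CPM in the mesenchyme-rich clusters at E16.5 and at 29.8, 30.0, 0 and 35.8 CPM at P3, where 35.8 CPM is 1 UMI in library D. It fell there by 2.76 (SE 0.48, adjusted p = 0.000696), and its log2 fold change over all selected barcodes was -0.48 (adjusted p = 0.185). The mitotic kinase Cdk1 fell by 1.52 (adjusted p = 0.000388) and by 2.04 (adjusted p = 0.00174), and Ube2c, which marks proteins for destruction in mitosis, by 0.95 and 2.28. Ube2c did not pass under 5% hemoglobin UMIs (-0.46, adjusted p = 0.390) or over all selected barcodes with library totals (-0.47, 0.0823), nor Cdk1 after thinning (-1.17, 0.0593). The difference between the selections was not tested.

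Several complement genes rose, among them C3 over all selected barcodes. Of 12 listed complement and innate genes, 10 were tested and 5 rose (median 0.67), and in the mesenchyme-rich clusters 5 of 8 rose (median 1.86), with 0 lower in either. Of all genes, 12.1% were called higher over all selected barcodes and 10.1% in the mesenchyme-rich clusters. The count of listed genes that rose was 2 of 8 (median 0.35) under 5% hemoglobin UMIs, where 459 of 3811 genes were called higher. C3 was at 33.4, 44.5, 16.9, 55.0 and 32.8 CPM in the mesenchyme-rich clusters at E16.5 and at 3892, 4056, 4075 and 2650 CPM at P3, a description, since C3 is a leading gene of a P3 cluster in that selection. Over all selected barcodes it was at 282, 679, 372, 156 and 577 CPM and at 1899, 1792, 1399 and 1196 CPM, and rose by 1.51 (SE 0.33, adjusted p = 0.00489). That call was lost under 5% hemoglobin UMIs (0.76, adjusted p = 0.151) and with at least 4 markers (1.05, adjusted p = 0.213). Hepatocytes, whose markers summed higher at E16.5, also make C3, and their part in its level was not tested. C1s1, a serine protease that starts the classical pathway, rose by 2.51 in the mesenchyme-rich clusters (adjusted p = 0.000145), with -0.07 over all selected barcodes (adjusted p = 0.914). Reads of C1s1 and its close paralog may have been split or shared in counting. Serping1, the inhibitor of that protease, rose by 1.41 and 1.94, and the scavenger collectin gene Colec12 by 2.08 and 1.78.

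Most of the tested interferon-linked and MHC class I genes rose. Of 10 listed, 9 were tested, 7 rose and 1 fell (median 1.27), where 12.1% of all genes were called higher and 14.4% lower. In the mesenchyme-rich clusters 6 of 8 rose and 0 fell (median 1.42), beside 10.1% and 12.5% of all genes there. In barcodes under 5% hemoglobin UMIs, 4 of 8 rose and 1 fell (median 1.04), where 459 of 3811 genes were called higher and 551 lower. Ifitm3, a membrane protein that restricts viruses (chromosome 7, 141009586 to 141010770, minus strand), was at between 111 and 172 CPM and at 904, 913, 1402 and 841 CPM. It rose by 2.37 (SE 0.23, adjusted p = 3.96e-05) and by 2.78 (adjusted p = 1.05e-05). It was also higher at P3 in the remaining passing barcodes, at 76.1 CPM at E16.5 and 402 CPM at P3, values given without a test. Ifitm1 rose by 2.00 and 2.06. H2-K1, which presents peptides to T cells, was at 3.34, 9.88, 6.75, 25.7 and 15.1 CPM in the mesenchyme-rich clusters at E16.5 and at 128, 216, 288 and 107 CPM at P3, a rise of 3.49 (SE 0.40, adjusted p = 2.31e-05). Over all selected barcodes its log2 fold change was 0.91 (adjusted p = 0.0569), and it passed without Jag1Ndr/+ replicate 1 (1.13, adjusted p = 0.0262) or the shared library (1.05, adjusted p = 0.0447). The Ifitm genes and the MHC class I genes are near-identical families whose reads the counting could have split. B2m, the light chain of MHC class I, fell by 0.80 over all selected barcodes (adjusted p = 0.0359) and did not pass in the mesenchyme-rich clusters (-0.45, adjusted p = 0.202) or with library totals (-0.39, adjusted p = 0.334). Its call was lost for 6 of the 9 libraries left out in turn (0.0533 to 0.106, all but Jag1+/+ replicate 1, Jag1Ndr/Ndr replicate 1 and A).

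Most of the tested immediate early genes, which tissue digestion can induce, fell over all selected barcodes. Of 16 listed, 14 were tested, 9 fell and 0 rose (median -1.51), where 14.4% of all genes were called lower. In the mesenchyme-rich clusters 2 of 12 fell (median -1.01), near the 12.5% of all genes called lower there. Zfp36, which speeds the decay of inflammatory mRNAs, was at 111, 331, 163, 197 and 161 CPM and at 51.1, 6.97, 3.75 and 11.1 CPM. It fell by 3.33 (SE 0.53, adjusted p = 0.000762) and by 2.94 (adjusted p = 0.00182), and stood at 72.5 CPM at E16.5 and 19.6 CPM at P3 in the remaining passing barcodes. Fosb fell by 2.17 and 2.04. Fos, Egr1 and Socs3 fell by 1.68, 1.81 and 1.99 over all selected barcodes and did not pass in the mesenchyme-rich clusters (adjusted p = 0.143, 0.153 and 0.0893), nor did Fos with at least 4 markers (-1.62, adjusted p = 0.0511). Enzyme mix and stage changed together, so their parts cannot be told apart.

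A separate rule named the genes with the largest stage differences that were also enriched in the selected barcodes. It asked for an adjusted p under 0.05, no overlap between stages, at least 20 CPM in the higher stage, and at least 2 times the level of the remaining passing barcodes there. The rule was met by 223 higher and 133 lower genes, and the 15 largest in each direction were taken. The higher 15 were Dmkn, Clec3b, Mfap5, Slc8a1, Slpi, Slit3, Ptgis, Msln, Tm4sf1, Cxcl16, Gpx3, Loxl1, Igfbp6, Relb and Il33, with log2 fold changes from 3.15 (Il33) to 6.03 (Dmkn). Of these, Clec3b, Slc8a1, Slpi, Slit3, Relb and Il33 were not tested in the mesenchyme-rich clusters of all libraries. Without library D, Clec3b, Slpi and Il33 were tested there and rose by 5.83, 6.69 and 3.66, while Slc8a1, Slit3 and Relb were still not tested. Clec3b and Mfap5 were also on the portal fibroblast marker list and Msln on the mesothelial one, lists that the rule left in while it removed other cells' markers. Clec3b was at 0, 0, 0, 1.47 and 4.17 CPM at E16.5 and at 115, 246, 71.2 and 66.4 CPM at P3. Ptgis, which makes prostacyclin, was at 15.6, 1.06, 15.3, 10.3 and 3.47 CPM and at 210, 274, 86.2 and 44.3 CPM, and rose by 3.84 (SE 0.58, adjusted p = 0.000526) and by 3.72 in the mesenchyme-rich clusters. Gpx3, the secreted glutathione peroxidase, rose by 3.35 and 4.66, and the interleukin gene Il33 was at 2.12 to 4.42 CPM and 30.4 to 48.8 CPM.

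Of the 15 lower genes, 14 are reported: Serpina6, A2m, F12, Car3, Slc36a2, Spink1, Rbp2, Aqp8, Aadac, Spp2, Apom, Ugt2b34, Uroc1 and C8g. Most are plasma proteins or enzymes of hepatocytes, and none of the 14 was tested in the mesenchyme-rich clusters of all libraries, where their counts were too low for the filter. Without library D, Spink1 was tested there and fell by 4.55 (adjusted p = 0.0009). Serpina6, the corticosteroid carrier of plasma (chromosome 12, 103646630 to 103657212, minus strand), had 3061 UMIs at E16.5 and 0 at P3, at least 367-fold lower against a limit of 3 counts over the P3 group (1.76 CPM). By the same limit, A2m was at least 70.5-fold, F12 at least 23.1-fold and Slc36a2 at least 16.2-fold lower. Serpina6 was a leading gene of the hepatocyte-like E16.5 cluster, and the hepatocyte marker sum over selected barcodes differed in the same direction. The part of hepatocyte RNA in the lower genes was not tested.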

How the data were processed

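The deposited files were UMI count matrices per sample, made by the authors with Cell Ranger, whose version is 3.0.2 at P3 and 3.1.0 at E16.5 per the file headers and 2.1.1 per the submitters' processing notes, which also name mm10, R 4.1.2 and Seurat. The headers list 22597 genes at P3 and 31053 at E16.5, and stages were joined by Ensembl identifier. The members, gene lists and tests were chosen with earlier results of these data known.

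Counts as deposited were summed per library over the selected barcodes, and cells were not treated as replicates. Genes kept by filterByExpr were tested with edgeR 4.0.16 (quasi-likelihood, TMM, Benjamini-Hochberg, threshold 0.05, R 4.3.3), homozygous against other libraries at E16.5 (2 against 3) and P3 against E16.5 (4 against 5), without covariates. Nothing in the files shows more than that the labels name separate individuals, so p-values measure the spread between libraries. DESeq2 1.42.0 was an alternative. Shares were compared by exact permutation (scipy 1.17.1). Barcodes were clustered per stage with numpy 2.4.6 and igraph 0.11.9 (1500 variable genes, 15 principal components, 15 neighbours, Leiden resolution 1.0), and clusters with a mean z-score of at least 1 for a mesenchymal marker list were called mesenchyme-rich. Resolution 0.5 had been planned and was replaced after the data were seen, because it merged macrophage-like barcodes with a mesenchyme-rich cluster at E16.5. Doublets were called per library with Scrublet (scanpy 1.11.5) and kept in the main results. The scripts were tested on simulated counts. Named genes were members of the gene lists and the 15 largest in each direction by the rule given with them, which leaves out selection genes, other cells' markers, mitochondrial genes, Y-linked genes, Xist and Tsix. Some genes of the lists and of this rule are not reported here. Coordinates are those of GENCODE M21 on GRCm38. Intervals and floors cover counting error.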

Additional observations from a re-analysis of the deposited data

Results flagged for a closer look

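In 19 of 216 groups of 4 or 5 libraries, 1 library stood apart from the others by Dixon's test, against about 1 in 20 expected by chance. All values are CPM over the selected barcodes. At P3 library D, with 24 barcodes, was high for Hgf (122, others 67.5 to 74.4), Mmp2 (432, others 63.7 to 91.3), Lama2 (88.6, others 15 to 18.6) and Spink1 (11.1, others 2.32 to 3.75), where 11.1 CPM in library D is 1 UMI. Library A was high for the hepatocyte-type genes Rbp4 (448, others 44.3 to 105), Ugt2b34 (7.61), Aadac (5.44), Uroc1 (2.17) and Car3 (1.09), with the other P3 libraries at 0 for the last 4 (7, 5, 2 and 1 UMIs in A), and for Zfp36 (51.1, others 3.75 to 11.1). Library B was high for Igf2 (37.2, others 0 to 4.35), and library C for Ifitm3 (1402, others 841 to 913).

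At E16.5, Jag1Ndr/Ndr replicate 1 was high for Wt1 (81.0, others 17.0 to 29.4), Gata6 (85.5, others 50.7 to 58.9), Lama1 (25, others 15.3 to 16.9) and Relb (5.89, others 0 to 1.39). Jag1+/+ replicate 1 was high for Bgn (217, others 112 to 141) and Wnt4 (20.8, others 2.12 to 6.54), and Jag1Ndr/+ replicate 1 was low for Rbpj (15.3, others 27.3 to 30.5).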

How the results depend on the processing

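The alternatives named here with mesenchyme-rich clusters, library totals or library D were chosen after seeing the data. Genotype calls, 0 with all libraries and 0 to 0 with each left out, were 43 (6 higher, 37 lower) with selection after thinning and 25 (18 higher, 7 lower) without the filter on low counts. Without a homozygous library that arm is 1 library, assumed to vary like the other group, and genes with an unadjusted p under 0.05, 101 with all libraries, were 78 without replicate 1 and 637 without replicate 2, so the 0 calls do not show stability. Stage calls ranged from 1476 to 2126 with 1 library left out. They were 813 with selection after thinning, 1349 with at least 4 markers, 1010 under 5% hemoglobin UMIs, and in the mesenchyme-rich clusters 943, 1096 without library D, 1184 with library totals and 894 with the replicate block. Same-numbered libraries did not deviate together in every pair, so the numbers were not taken as pairing. The replicate block gave 1878 stage calls and 0 genotype calls.

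The genotype log2 ratio of the selected share reversed to -0.051 with doublets removed, -0.15 after thinning, -0.11 with at least 4 markers, -0.064 without the Stab2 and Kdr condition, -0.13 in the mesenchyme-rich clusters and -0.057 under 5% hemoglobin, and ranged from -0.12 to 0.16 with 1 library left out. The stage ratio was -0.64 with doublets removed, 0.35 after thinning, -1.54 under 5% hemoglobin and -0.70 to -0.15 with 1 library left out.

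Over 99 named genes and 2223 refits, 1980 kept direction and side of the threshold, 171 no longer passed, 46 newly passed and 26 reversed. Between genotypes Jag1 ranged from -0.82 to 0.46 with 1 library left out, the latter without Jag1Ndr/Ndr replicate 2, and Plod1 was -0.23 after thinning. Between stages Fn1 was 0.64 after thinning and in the mesenchyme-rich clusters 1.03, 1.13 without library D, 1.45 with library totals and 1.02 with the block. Under 5% hemoglobin Lum was 0.94, Cxcl12 0.35 and Rrm2 0.091. With at least 4 markers Cxcl12 was 0.20. In the mesenchyme-rich clusters without library D, P4hb was 0.077, Hgf -0.0603 and Dlk1 0.17. With library totals there, P4hb was 0.38, Rbp4 0.25, Cxcl12 0.21 and Dlk1 0.33. C1s1 was 1.26 after thinning, 0.30 with library totals, 0.10 with the block, -0.39 to 0.15 with 1 library left out, and in the mesenchyme-rich clusters 2.51, 2.56 without library D, 2.88 with library totals and 2.48 with the block. The causes were not tested.

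A fit on stellate-like barcodes and the stellate-like share were not run, because no E16.5 cluster was named stellate-like. Library D had 24 barcodes and 90330 UMIs, so 1 UMI in its mesenchyme-rich clusters is 35.8 CPM and low genes there were not resolved.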
